A study of Mus musculus with 8 samples.

Results

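The mouse loci *Gm45315*, *AC134576.3*, *Glns-ps1*, *Gm21596*, *Atp6v0c-ps2*, *Gm8822*, *Gm28036*, *Gm11525* and *Gm4524* were followed across whole-kidney RNA-Seq libraries of 4 control and 4 SIK mutant mice. They were chosen by their own contrast between the genotypes, as loci with few or no reads in some kidneys or a clear difference between genotypes, and they range from reads in a single genotype to a partial difference. They are 9 of the 55401 genes listed for each kidney, and 7 of them passed the filter on low counts that left 14326 genes for testing, *Gm8822* and *Gm28036* being the exceptions. Since the contrast chose them, their differences between genotypes are described here without a test.

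Salt-inducible kinases (SIKs) are kinases that parathyroid hormone signalling inhibits, and the study deleted them in the kidney. Per the labels, control mice carried SIK1f/f;SIK2f/f,SIK3f/f, floxed alleles of all 3 genes with no Cre recombinase, and mutant mice carried those alleles plus Six2-Cre. The study's text gives *Sik1* fl/+ for the mutants, so the labels and the text differ on *Sik1*. It reports that no surviving Six2-Cre mice with both alleles of all 3 genes floxed could be obtained. It also describes Cre-negative littermates as controls and mice of both sexes. Six2-Cre acts in nephron progenitors and their descendants, so a whole kidney also holds cells in which the floxed alleles stay intact. The labels give no age, litter or sex, and nothing in them says more of how the 4 mice of a group were related, so the spread between kidneys may be in part technical.

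Depth was 10179648 to 10925100 expected counts per kidney, and 3 counts, taken as the floor of detection, corresponded to 0.262 to 0.304 CPM, the count scaled to library size. Floors and intervals here cover counting error only. *Sik3* was at 58.4 to 66.3 CPM in controls and 33.6 to 43.0 CPM in mutants (edgeR FDR = 0.0697, DESeq2 FDR = 3.69e-06), *Sik2* overlapped between groups (7.95 to 9.93 against 4.49 to 9.28 CPM), and *Sik1* was at 36.7 to 43.1 CPM in controls and 43.3 to 54.0 CPM in mutants (edgeR FDR = 0.601). Controls 3 and 4 stood apart from the other 6 kidneys, as Y-linked genes averaged 0 and 0.0437 CPM in them against 19.2 to 23.7 CPM elsewhere. *Xist*, a further sex-linked gene, was at 259.9 and 297.2 CPM in controls 3 and 4 and at 0 to 0.493 CPM elsewhere. By these genes controls 3 and 4 were female and the other 6 kidneys, with all mutants, male. Sex was thus unevenly divided between the genotypes. The 11 genes marking kidney cell types summed to 11610 to 13190 CPM in controls and 11030 to 11710 CPM in mutants. *Slc34a1* and *Umod* made up most of these sums, and 5 of the 11 genes had a log2 fold change above 0. *Slc5a2* was lower in mutants, at 314.8 to 320.1 CPM against 453.5 to 554.1 CPM in controls (edgeR FDR = 0.0697). The sums of 7 adipocyte markers ranged from 22.3 to 300.3 CPM in controls and 184 to 296.4 CPM in mutants. Control 3 alone gave the top of the control range, and in every other control each of these markers was lower than in any mutant. All 6 tested adipocyte markers had a log2 fold change above 0, with a median of 1.48 (edgeR FDR = 0.715 to 0.974). Erythroid markers summed to 434.8 to 729.9 CPM in controls and 434.9 to 1833 CPM in mutants, and 5 immune markers to 10.9 to 18.7 and 15.1 to 19.8 CPM. The part of these differences in the results at the 9 loci was not tested, and in whole kidneys fewer cells of a type cannot be told apart from less RNA per cell.

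A processed pseudogene is a copy of a spliced mRNA that was reverse transcribed and inserted elsewhere in the genome, usually without introns and without the promoter of its parent gene. Young copies differ from the parent at few bases, so a short read may match both, and a counting program must then divide it between them. An antisense RNA is read from the strand opposite to another gene, and a read-through transcript runs from one gene into the next. Of the 9 loci, 6 are annotated as processed pseudogenes, 2 as antisense RNAs and 1 as protein coding.

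For 5 of the pseudogenes, 60-base stretches of coding sequence are set beside the parent mRNA. Each was chosen as the gap-free coding stretch of its alignment with the most differences, so other stretches are as alike or more alike. Reads that lie in a stretch differ between pseudogene and parent only at the bases in capitals. All are written 5′ to 3′ from GENCODE M21 transcripts on GRCm38 (mm10). *Hmgb1*, which encodes an abundant chromatin protein, is the parent-like match of *Gm45315* at chr7:12797789-12797848 (plus strand), aligned to chr5:149048759-149048818 (minus strand), and of *Gm21596* at chr2:113920346-113920405 (minus strand), aligned to chr5:149050678-149050737 (minus strand). *Glul*, the gene of glutamine synthetase, matches *Glns-ps1* at chr11:19721185-19721244 (plus strand), aligned to chr1:153907895-153907954 (plus strand). *Atp6v0c*, the proteolipid subunit of the proton pump known as the V-ATPase, matches *Atp6v0c-ps2* at chr6:37806166-37806225 (plus strand), aligned to chr17:24164822-24164881 (minus strand). *Actr3*, a subunit of the actin-nucleating Arp2/3 complex, matches *Gm8822* at chrX:81821779-81821838 (minus strand), aligned to chr1:125397452-125397511 (minus strand). Capitals mark the bases at which the members of each pair differ.
Gm45315: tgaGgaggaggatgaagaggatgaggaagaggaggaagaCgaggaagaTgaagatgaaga
Hmgb1: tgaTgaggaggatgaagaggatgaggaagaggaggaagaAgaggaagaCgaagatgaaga
Gm21596: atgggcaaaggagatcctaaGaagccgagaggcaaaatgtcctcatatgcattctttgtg
Hmgb1: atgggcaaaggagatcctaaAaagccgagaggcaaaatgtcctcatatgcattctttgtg
Glns-ps1: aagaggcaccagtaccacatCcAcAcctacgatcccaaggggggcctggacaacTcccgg
Glul: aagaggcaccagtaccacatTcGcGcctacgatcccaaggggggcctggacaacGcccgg
Atp6v0c-ps2: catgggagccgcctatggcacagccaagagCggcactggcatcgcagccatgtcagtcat
Atp6v0c: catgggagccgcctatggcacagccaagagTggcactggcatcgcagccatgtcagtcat
Gm8822: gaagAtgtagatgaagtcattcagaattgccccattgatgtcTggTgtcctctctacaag
Actr3: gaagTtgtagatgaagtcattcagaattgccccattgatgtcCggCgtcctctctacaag

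Written with the parent's base first, the position counted from 1 at the 5′ end of the pseudogene transcript, and then the pseudogene's base, the differences in these stretches are T264G, A300C and C309T in *Gm45315*, A178G in *Gm21596*, T851C, G853A, G855A and G885T in *Glns-ps1*, T111C in *Atp6v0c-ps2*, and T897A, C935T and C938T in *Gm8822*. For *Atp6v0c-ps2*, T111C was the single mismatch in 465 aligned bases, which are the whole annotated pseudogene. For *Gm21596*, A178G was the single mismatch in 1317 aligned bases, beside 6 gap bases. *Gm45315* differed from *Hmgb1* at 4 of 332 bases, *Gm8822* from *Actr3* at 26 mismatches and 3 gap bases in 2348, and *Glns-ps1* from *Glul* at 24 mismatches and 12 gap bases in 1126. *AC134576.3*, whose sequence is not shown, was the most diverged of the pseudogenes, with 55 mismatches and 24 gap bases against *Glul* in 1122.

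In an exact comparison of every 50-base window, on the same strand, with all other annotated transcripts, the share of windows found elsewhere ranged from 0.428% for *Gm4524* to 95.4% for *Gm28036*. It was 90.1% for *Atp6v0c-ps2*, 88.0% for *Gm45315*, 82.0% for *Gm21596*, 52.8% for *Gm8822*, 33.0% for *Glns-ps1*, 11.6% for *AC134576.3* and 6.24% for *Gm11525*. At 100 bases it was 72.7% for both *Atp6v0c-ps2* and *Gm45315* and 0% for *AC134576.3*. Most windows of the first 3 pseudogenes could therefore not be placed by sequence alone, and most windows of the *Glul* pair could.

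The 9 loci did not follow genotype equally strictly. Levels of 7 loci did not overlap between genotypes, 2 of them higher in mutants (*AC134576.3*, *Glns-ps1*) and 5 lower (*Gm45315*, *Gm21596*, *Gm8822*, *Gm11525*, *Gm4524*), whereas *Atp6v0c-ps2* and *Gm28036* overlapped. Over the tested genes, 236 of 14326 (1.65%) did not overlap and were higher in mutants, and 342 (2.39%) were lower. A strict all-or-none pattern asked for rounded counts of 3 or fewer in every kidney of a genotype and more than 3 in every kidney of the other. It was met by 27 of the 18451 genes (0.146%) with more than 3 counts in some kidney, among them *Gm45315*, *AC134576.3* and *Gm8822*. With 10 or more counts asked of the higher genotype, it was met by *Gm45315* and *AC134576.3* and by no other gene. Because the loci were chosen on this contrast, nothing is read from their share against these backgrounds.

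**Figure D1:**
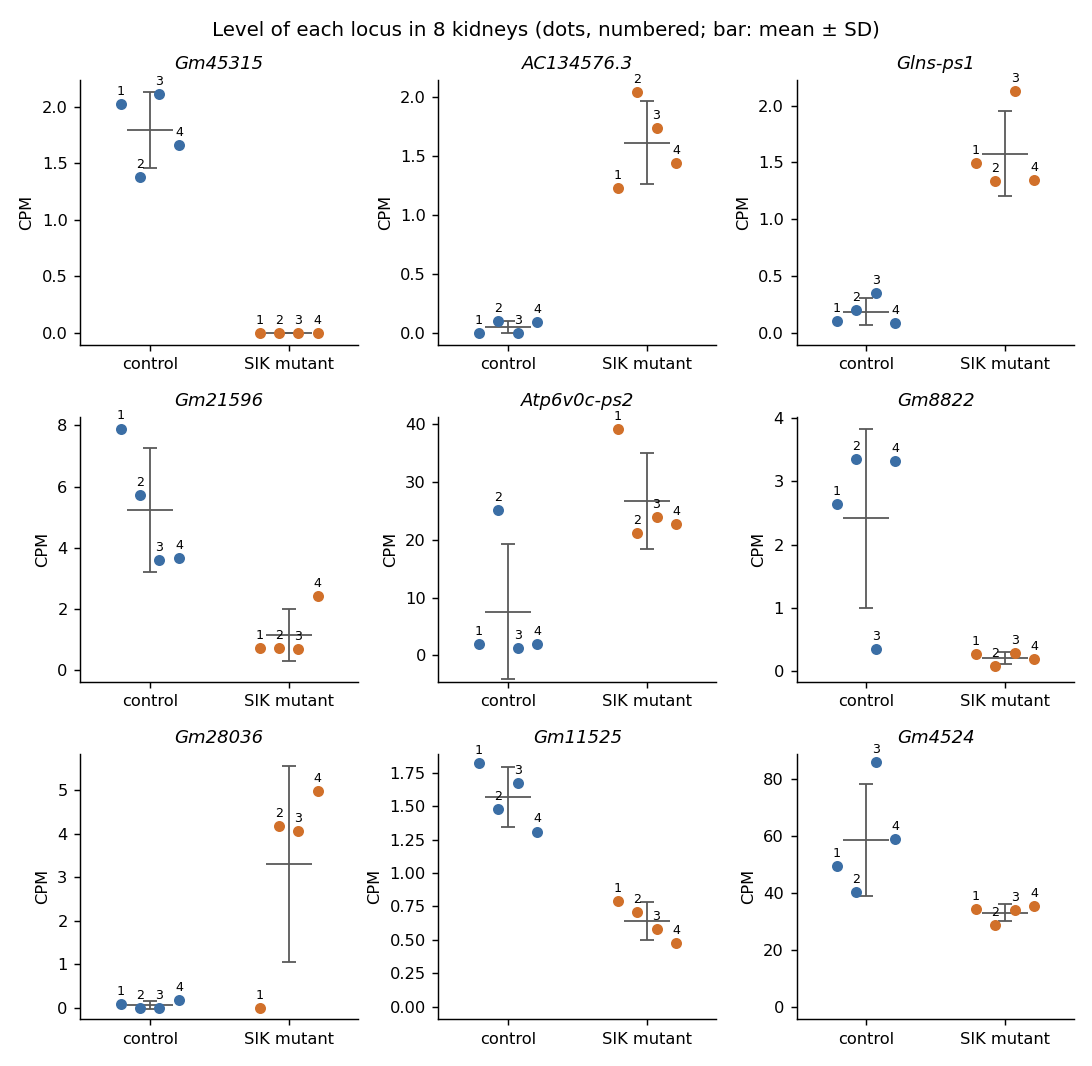
CPM of the 9 loci in each kidney, controls in blue and SIK mutants in orange, with the replicate number above each dot and the mean ± SD as a bar. *Gm45315* was at 0 in all 4 mutants, *Atp6v0c-ps2* was at 25.1 CPM in control 2 and under 2.1 CPM in the other controls, and *Gm28036* was at 0 in mutant 1 and above 4 CPM in the other mutants.

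*Gm45315* is a 333-base, single-exon locus on the plus strand at chr7:12797529-12797861, inside an exon of the opposite-strand pseudogene *Gm18194* and inside an intron of *Zscan18*, a zinc finger gene. It was at 2.03, 1.38, 2.11 and 1.66 CPM in controls 1 to 4, from 19.9, 13.8, 23.9 and 18.9 expected counts, and at 0 in all 4 mutants. Every control thus stood above every mutant, and against the floor of 3 counts per library the mutants were at least 6.47-fold lower. The fitted log2 fold change of −7.28 is no bound, since it depends on the prior count.

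The deposited posterior mean, which averages over the possible assignments of shared reads, was 13.9 to 24.2 reads in controls and 0.210 to 0.840 in mutants for *Gm45315*. The posterior means of controls and mutants thus did not overlap, and the posterior SD was 8.4% to 11.7% of the control counts. Whether sequence variants in the mice moved reads between copies was not tested. On the other strand *Gm18194*, which contains every base of *Gm45315*, was at 10.3 ± 1.83 CPM in controls and 9.30 ± 0.979 CPM in mutants (mean ± SD, n = 4 each, log2 fold change −0.15 ± 0.154 SE, edgeR FDR = 0.915). Its posterior SD was 0 in every kidney, so RSEM divided no read between it and any other gene.

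*Gm21596*, a single-exon copy of *Hmgb1* on the minus strand at chr2:113919247-113920562, was lower but still detected in mutants. It was at 7.90, 5.72, 3.60 and 3.67 CPM in controls 1 to 4 and at 0.705, 0.712, 0.677 and 2.40 CPM in mutants 1 to 4. Mutant 4 stood above the other 3 mutants and below the lowest control. The fitted log2 fold change was −2.21 ± 0.459 (SE), and moving each count by 1 posterior SD against the difference left −1.56.

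The gene that both loci resemble had a log2 fold change near 0. *Hmgb1* was at 188 ± 8.13 CPM in controls and 202.8 ± 12.8 CPM in mutants (n = 4 each, log2 fold change 0.11 ± 0.0840 SE, edgeR FDR = 0.888), and *Gm21596* amounted to 18.9 to 40.5 reads per 1000 *Hmgb1* reads in controls and 3.27 to 11.1 in mutants. *Gm45315* amounted to 7.71 to 11.1 reads per 1000 in controls. Since *Hmgb1* held most of the reads, its sum with *Gm21596* had a log2 fold change of 0.08 ± 0.0850 (SE), opposite in sign to that of *Gm21596* alone.

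*Hmgb1* has many other copies in the annotation. On the same strand, 129 other genes shared a 50-base window with *Gm45315* or *Gm21596*, 34 of them had reads, and 2 passed the filter on low counts, *Hmgb1* itself and *Gm15387*. *Gm15387* was at 7.15 ± 1.92 CPM in controls and 4.04 ± 0.711 CPM in mutants (n = 4 each, log2 fold change −0.83 ± 0.227 SE, edgeR unadjusted p = 0.00481, FDR = 0.511). Of the 34 with reads, 0 were higher in mutants without overlap and 3 were lower, *Gm15387*, *Gm5518* and *Gm7890*, named after their values were seen, while without the filter on low counts 354 of all 25241 genes were higher and 428 lower in this way. *Gm5518* was at or near the floor of detection, at 0.0986 to 0.304 CPM in controls and 0 in all mutants. The summed level over *Gm21596* and the genes sharing a window with it was 203.7 ± 8.74 CPM in controls and 209.3 ± 13.8 CPM in mutants (n = 4 each), a log2 ratio of 0.04. Most of that sum was *Hmgb1* itself.

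*AC134576.3* and *Glns-ps1* are copies of *Glul*, whose enzyme joins ammonia to glutamate, and both were seen mainly in mutants. *AC134576.3* lies on the minus strand at chr18:38359441-38360538 and *Glns-ps1* on the plus strand at chr11:19720355-19721472, each with a single exon. *AC134576.3* was at 0, 0.0986, 0 and 0.0874 CPM in controls 1 to 4, which is 0 or 1 read per kidney, and at 1.23, 2.05, 1.74 and 1.44 CPM in mutants 1 to 4. *Glns-ps1* was at 0.101, 0.197, 0.351 and 0.0874 CPM in controls and at 1.497, 1.33, 2.13 and 1.34 CPM in mutants.

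Neither pseudogene overlapped between genotypes, and mutant levels of both lay within a narrow band, at 1.61 ± 0.355 CPM for *AC134576.3* and 1.58 ± 0.375 CPM for *Glns-ps1* (n = 4 each). Summed over kidneys, 70 against 2 reads gave *AC134576.3* a mutant to control ratio of 34.6 (95% exact counting interval 9.22 to 291), and 68 against 8 reads gave *Glns-ps1* a ratio of 8.4 (4.03 to 20.2). These intervals take reads and not mice as the unit and leave out the spread between kidneys. Since the loci were chosen on this contrast, the intervals are no test of it. The assignment of reads left little spread in these counts, the posterior SD being at most 2.43% of the count for *AC134576.3* and 12% for *Glns-ps1*. Both loci stood at 3.71 to 6.96 reads per 1000 *Glul* reads in mutants and at no more than 0.572 in controls.

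*Glul* did not rise with its copies. It was at 330.1, 344.9, 751 and 438 CPM in controls 1 to 4 and at 332, 293, 333 and 296.4 CPM in mutants 1 to 4, with control 3 far above the others and the groups overlapping. Its log2 fold change was −0.57 ± 0.241 (SE, edgeR unadjusted p = 0.0406, FDR = 0.768), and −0.24 without control 3. Among kidneys with Y-linked reads, which leaves out controls 3 and 4, it was −0.095. Controls 1 and 2 held 330.1 to 344.9 CPM of *Glul* and controls 3 and 4 held 438 to 751 CPM. Since *Glul* held nearly all reads, its sum with either copy had a log2 fold change of −0.56, opposite in sign to those of the copies. Of 12 genes of glutamine and ammonia metabolism, 11 were tested, 1 was higher and 2 were lower in mutants at an unadjusted p under 0.05 and none passed FDR 0.05 (edgeR), where 2.76% of all tested genes were higher and 3.59% lower at that p, with a median log2 fold change of −0.03 against −0.00379 over all tested genes. The higher one was *Slc38a3*, a glutamine transporter (log2 fold change 0.64 ± 0.187 SE, edgeR FDR = 0.576), and the lower ones were *Glul* and *Pck1*, an enzyme of glucose synthesis (−0.72 ± 0.274 SE, edgeR FDR = 0.722).

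*Atp6v0c-ps2*, on the plus strand at chr6:37806086-37806550, did not separate the genotypes. It was at 2.03, 25.1, 1.23 and 1.92 CPM in controls 1 to 4 and at 39.0, 21.1, 24.0 and 22.8 CPM in mutants 1 to 4. Control 2 stood among the mutants, at a level 1 mutant exceeded. In expected counts the kidneys lay at 3 separate levels, 13.5 to 22.2 in controls 1, 3 and 4, 236.6 to 255 in control 2 and mutants 2, 3 and 4, and 443 in mutant 1.

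Within the annotated pseudogene T111C is the difference by which a read could be told from *Atp6v0c*. The assignment of reads left little spread, the posterior SD being 1.27% to 9.85% of the count. *Atp6v0c* itself was at 656.6 ± 66.9 CPM in controls and 584 ± 50.7 CPM in mutants (n = 4 each, log2 fold change −0.17 ± 0.110 SE, edgeR FDR = 0.848). Per 1000 *Atp6v0c* reads, *Atp6v0c-ps2* had 2.77, 36.9, 1.99 and 3.20 in controls 1 to 4 and 67.2, 36.8, 45.3 and 34.8 in mutants 1 to 4, with control 3 lowest and mutant 1 highest on this scale and in CPM. The fitted log2 fold change of *Atp6v0c-ps2* was 1.83 ± 0.807 (SE), 3.95 without control 2 and −0.12 for the sum with *Atp6v0c*, which held most reads of that sum.

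No locus of the 9 lies on chromosome 9 or 17, where *Sik2*, *Sik3* and *Sik1* are. Of the genes they match best, *Atp6v0c* lies on chromosome 17, 7.67 Mb from *Sik1*, and the others lie on other chromosomes. The part of the mice's genetic background in these counts was not tested.

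Other V-ATPase genes were compared as a list. Of 11 genes for subunits and accessory proteins of its membrane domain, all were tested, 0 were higher and 3 lower in mutants at an unadjusted p under 0.05 and none passed FDR 0.05 (edgeR), where 2.76% of all tested genes were higher and 3.59% lower at that p, with a median log2 fold change of −0.09 against −0.00379 over all tested genes. The 3 were *Atp6v0d2* (−0.30 ± 0.0918 SE), *Atp6v0e2* (−0.27 ± 0.0814 SE) and *Atp6v0a4*, the subunit of acid-secreting intercalated cells (−0.20 ± 0.0789 SE), with edgeR FDR of 0.593 to 0.754.

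*Gm8822*, a copy of *Actr3* on the minus strand at chrX:81820384-81822730, was lower in mutants, with control 3 close to them. It was at 2.63, 3.35, 0.351 and 3.32 CPM in controls 1 to 4, from 25.8, 33.5, 4.19 and 38.0 expected counts, and at 0.264, 0.0890, 0.290 and 0.192 CPM in mutants 1 to 4, from 1.05 to 3.05 expected counts. The groups did not overlap, but control 3 exceeded the highest mutant by little more than 1 read. *Actr3* was at 103 ± 2.91 CPM in controls and 108 ± 4.80 CPM in mutants (n = 4 each, log2 fold change 0.07 ± 0.0716 SE, edgeR FDR = 0.909). Its sum with *Gm8822*, in which *Actr3* held most reads, had a log2 fold change of 0.04 against −3.46 ± 0.702 (SE) for *Gm8822*.

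**Figure D2:**
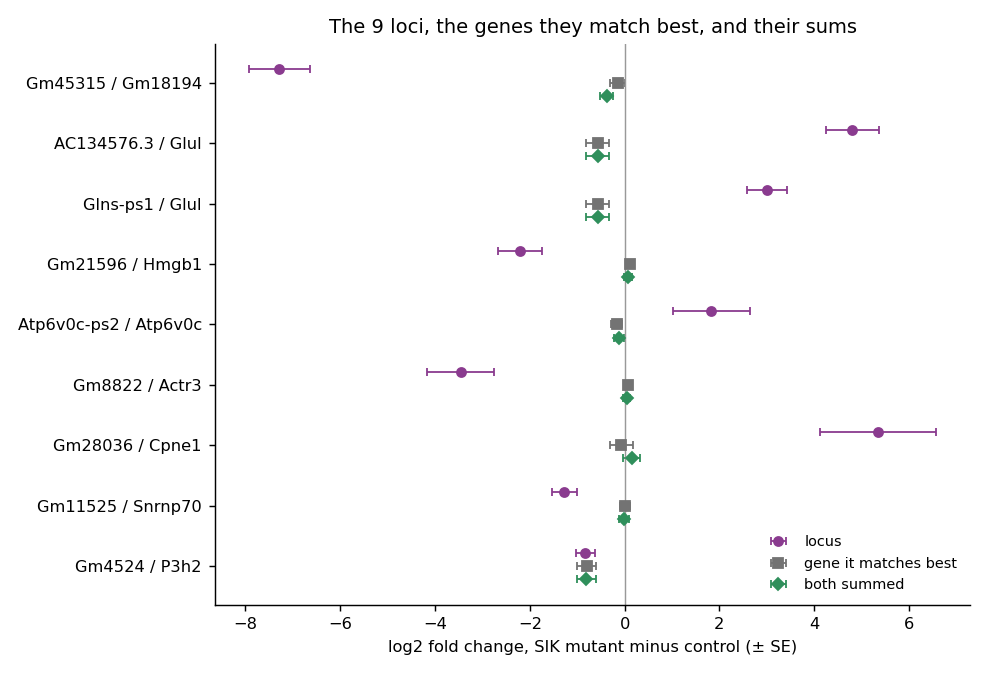
Log2 fold change of mutants against controls with its SE from the edgeR model, for each locus (circles), for the gene it matches best (squares) and for the summed counts of both (diamonds). The sums lie near the matched genes, which hold most of the reads, and range from −0.81 to 0.15. The loci range from −7.28, which is no bound, to 5.34, and *Gm4524* lies beside its match *P3h2*.

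*Gm28036* is annotated as a protein-coding read-through locus of 34 exons on the minus strand at chr2:156071845-156127092, running over *Nfs1*, a cysteine desulfurase gene, *Rbm12*, which encodes an RNA-binding protein, and *Cpne1*, which encodes a copine. It was at 0.101, 0, 0 and 0.175 CPM in controls 1 to 4 and at 0, 4.18, 4.06 and 4.99 CPM in mutants 1 to 4. Mutant 1 thus stood with the controls. Within the locus *Cpne1* matched the read-through transcript over 3291 bases at 99.97% identity, and 95.4% of its 50-base windows occurred in other genes.

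The posterior mean gave another picture of *Gm28036*. It was 15.7, 8.32, 14.1 and 19.5 reads in controls 1 to 4 and 15.5, 45.6, 45.0 and 49.4 reads in mutants 1 to 4, so kidneys listed at 0 had posterior means of 8.32 to 15.5 reads. Mutants 2, 3 and 4 had the highest values on both measures, but with posterior SDs of 16.7, 16.9 and 14.7 reads, against 10.9 in control 4, the ranges of 1 SD of mutants 2 and 3 reached into that of control 4. The fitted log2 fold change was 5.34 ± 1.23 (SE) with expected counts, 1.42 with posterior mean counts and 0.15 for the sum with *Cpne1*.

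The genes under *Gm28036* had log2 fold changes of −0.07 ± 0.243 (SE) for *Cpne1*, −0.09 ± 0.200 for *Rbm12* and −0.06 ± 0.126 for *Nfs1* (edgeR FDR = 0.981, 0.961 and 0.966). Among the mutants *Cpne1* was at 28.4 CPM in mutant 1, where *Gm28036* was at 0, and at 11.2 CPM in mutant 4, where *Gm28036* was highest. The sum over *Gm28036* and these 3 genes was 128 ± 17.5 CPM in controls and 126 ± 2.98 CPM in mutants (n = 4 each).

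**Figure D3:**
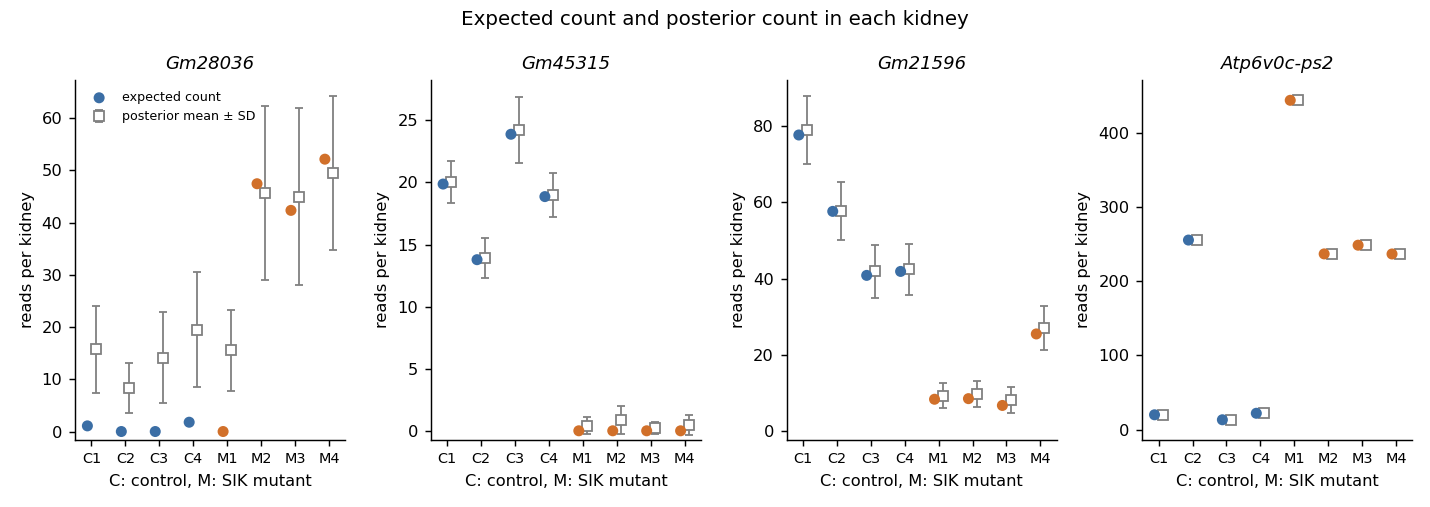
Reads per kidney at 4 loci as the expected count (filled circles, controls C1 to C4 in blue, mutants M1 to M4 in orange) and as the posterior mean with its posterior SD (open squares with bars). Both measures nearly coincide for *Atp6v0c-ps2*, *Gm21596* and *Gm45315*, whereas for *Gm28036* the kidneys with expected counts of 0 to 1.78 have posterior means of 8.32 to 19.5.

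The counts of the antisense RNAs *Gm11525* and *Gm4524* carried no spread from read assignment, their posterior SD being 0 in all kidneys. *Gm11525*, on the minus strand at chr11:96918941-96922493 with 2 exons, lies within introns of the opposite-strand RNA *D030028A08Rik*. It had 18, 15, 19 and 15 reads in controls 1 to 4 and 9, 8, 6 and 5 reads in mutants 1 to 4, or 1.57 ± 0.223 against 0.641 ± 0.139 CPM (n = 4 each). The groups did not overlap, and the log2 fold change was −1.27 ± 0.274 (SE). Its best match to another gene was a 197-base stretch of *Snrnp70*, one of 1635 genes it matched in part, and *Snrnp70* had a log2 fold change of 0.00 ± 0.107 (SE, edgeR FDR = 0.998). *D030028A08Rik* had a log2 fold change of −0.16 ± 0.282 (SE, edgeR FDR = 0.95).

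*Gm4524* had the log2 fold change closest to 0 among the 9 loci. It lies on the plus strand at chr16:25956475-25960342 with 2 exons and overlaps *P3h2*, which encodes a collagen prolyl 3-hydroxylase, over 1055 bases of the 3′ UTR of that gene, on the opposite strand (chr16:25959288-25960342). *Gm4524* was at 49.4, 40.2, 85.9 and 58.7 CPM in controls 1 to 4 and at 34.3, 28.7, 33.8 and 35.4 CPM in mutants 1 to 4. All mutants lay below all controls, and control 3 was the highest kidney.

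*P3h2* followed the same order of genotypes. It was at 99.5, 90.2, 182.5 and 134 CPM in controls 1 to 4 and at 68.6, 72.2, 78.0 and 71.6 CPM in mutants 1 to 4, again without overlap and with control 3 highest. Its log2 fold change was −0.80 ± 0.199 (SE, edgeR unadjusted p = 0.00266, FDR = 0.456, DESeq2 FDR = 0.0373), against −0.83 ± 0.207 for *Gm4524*. *Gm4524* amounted to 438 to 497 reads per 1000 *P3h2* reads in controls and 397 to 499 in mutants, so the ratio overlapped where the levels did not. Over the 8 kidneys their log2 CPM had a Pearson correlation of 0.974, which is given as a description, the 2 genes being counted in the same libraries and overlapping in position. RSEM shared no read between them, as the posterior SD of *P3h2* was also 0, but whether the authors counted by strand is not stated.

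Both changes were smaller among kidneys with Y-linked reads. Without controls 3 and 4 the log2 fold change was −0.43 for *Gm4524* and −0.38 for *P3h2*. Controls 1 and 2 held 40.2 to 49.4 CPM of *Gm4524* and controls 3 and 4 held 58.7 to 85.9 CPM. *Gm21596* went the other way, at 5.72 to 7.90 CPM in controls 1 and 2 and 3.60 to 3.67 CPM in controls 3 and 4. *Atp6v0c-ps2* was at 2.03 to 25.1 CPM in controls 1 and 2 and 1.23 to 1.92 CPM in controls 3 and 4, and for the other 6 loci the ranges of these pairs of controls overlapped.

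**Figure D4:**
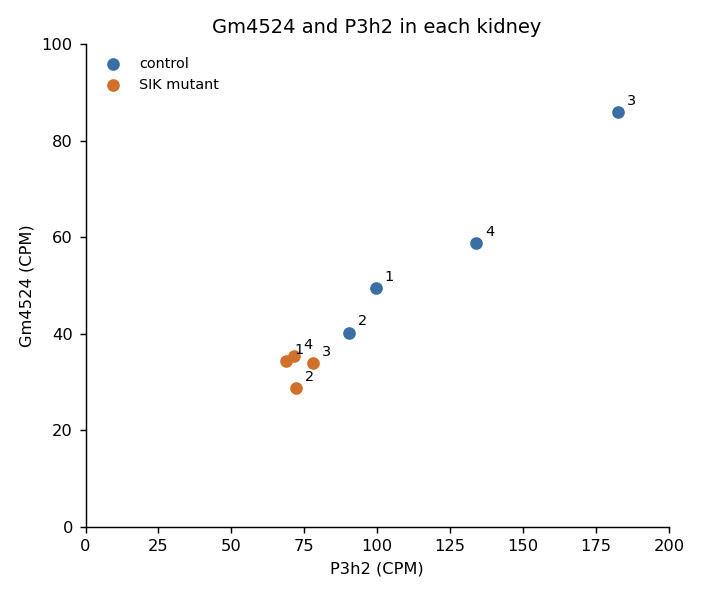
CPM of *Gm4524* against CPM of the opposite-strand gene *P3h2* in each kidney, controls in blue and SIK mutants in orange with replicate numbers. The 4 mutants sit together at 68.6 to 78.0 CPM of *P3h2* and 28.7 to 35.4 CPM of *Gm4524*, below all controls on both axes.

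The neighbourhoods of the loci were then compared with the rest of the genome. Within 500 kb of the 9 loci 236 genes are annotated and 103 were tested, of which 2 were higher and 8 lower in mutants at an unadjusted p under 0.05, or 9.71%. Over all 14326 tested genes 396 (2.76%) were higher and 515 (3.59%) lower at that threshold. At FDR 0.05 edgeR called 0 genes (0%), against 911 at an unadjusted p under 0.05, while DESeq2 called 67 and limma-voom 2. The median log2 fold change of the neighbours was −0.04 against −0.00379 over all tested genes.

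The neighbour with the largest log2 fold change was *Grem1*, which encodes a secreted antagonist of bone morphogenetic proteins, 161 kb from *Gm21596* on the same strand. It was at 0.608, 0, 0.176 and 0.0874 CPM in controls 1 to 4 and at 7.05, 6.23, 13.9 and 3.26 CPM in mutants 1 to 4. Its log2 fold change was 5.10 ± 0.693 (SE, edgeR FDR = 0.0697, DESeq2 FDR = 5.18e-10), opposite in direction to *Gm21596*. *Fmn1*, a formin gene on the far side of *Grem1*, was at 0.37 ± 0.121 (SE, edgeR FDR = 0.700), and *Arhgap11a* and *Aqr*, the nearest tested gene on each side of *Gm21596* at 70.6 and 181 kb, overlapped between genotypes.

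Near the other loci the changes were small. They were *Zscan22* (log2 fold change −0.39) near *Gm45315*, *Fchsd1* (−0.60) near *AC134576.3*, *Svopl* (−0.45) and *Atp6v0a4* (−0.20) near *Atp6v0c-ps2*, *Mmp24* (−0.33) near *Gm28036*, and *Osbpl7* (−0.56) and *Tbkbp1* (−0.54) near *Gm11525*, all lower in mutants and with edgeR FDR of 0.454 to 0.754. *P3h2* was the remaining one. Apart from overlapping genes, the nearest tested gene on each side of a locus, toward lower and then higher coordinates, was *Zfp606* or *Zfp329* for *Gm45315*, *Gnpda1* or *Ndfip1* for *AC134576.3*, *Spred2* (on the higher side alone) for *Glns-ps1*, *Akr1d1* or *Trim24* for *Atp6v0c-ps2*, *Ergic3* or *Romo1* for *Gm28036*, *Cdk5rap3* or *Prr15l* for *Gm11525*, and *Trp63* or *Cldn1* for *Gm4524*, and all of these overlapped between genotypes. *Gm8822* had 3 annotated neighbours, none of which was tested.

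**Figure D5:**
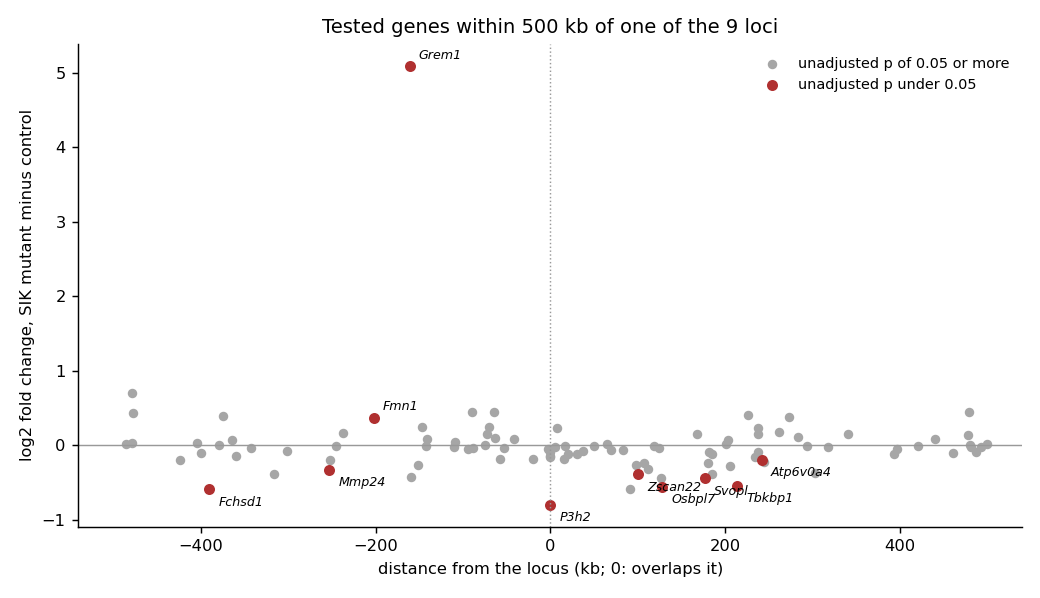
Log2 fold change of 103 tested genes against their distance from one of the 9 loci in kb, negative toward lower coordinates, with genes at an unadjusted edgeR p under 0.05 in red. *Grem1* stands at 5.10, and the other 9 red genes lie between −0.80 and 0.37.

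Processed pseudogenes as a class, with the 6 left out, were compared with other genes. Of 192 tested processed pseudogenes 10 had an unadjusted p under 0.05 (5.21%) and 8 did not overlap between genotypes (4.17%), against 6.31% and 3.99% of all 14319 tested genes outside the 9 loci. For 840 antisense and other long noncoding RNAs the shares were 7.14% and 4.76%, and for 13032 protein-coding genes 6.28% and 3.95%. Changes over 4-fold were fitted for 3 processed pseudogenes (1.56%) and 25 protein-coding genes (0.192%). They were also fitted for 2 of 96 other pseudogenes (2.08%) and for 0 of the antisense and other long noncoding RNAs. Over all genes outside the 9 loci the number was 30 (0.21%). The part of low counts in these changes was not tested. No test of these shares was made.

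Genes with the most similar pattern over the 8 kidneys were found by the Pearson correlation of log2(CPM + 0.5) with every other tested gene. They were *3830406C13Rik* for *Gm45315* (r = 0.967), *Insig1* for *AC134576.3* (0.970), *9030407P20Rik* for *Glns-ps1* (0.972), *Smpd1* for *Gm21596* (0.980), *Rsph3b* for *Atp6v0c-ps2* (0.955), *Hhatl* for *Gm8822* (0.965), *Dnajc11* for *Gm28036* (0.957), *Txnrd2* for *Gm11525* (0.961) and *Atp6v1g3* for *Gm4524* (0.981). Each is the highest of 14319 values over 8 kidneys and is a description. With the genes they match best the loci correlated at −0.614 to 0.335, apart from 0.974 for *Gm4524* and *P3h2*.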

How the data were processed

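Whole-kidney RNA was sequenced on a BGISEQ500 instrument. Submitters' processing notes name FastQC, STAR 2.7.2b, RSEM 1.3.0, DESeq2 and mm10; use of strand is not given in the sources used here. Each deposited expected count is an RSEM estimate in which reads shared by several genes are divided among them, and rounded values were tested. The deposited posterior mean counts and posterior SDs, counts averaged over read assignments and their SD, and the deposited TPM values, scaled to length and library, served as alternatives. IDs were matched to GENCODE M21 (54349 of 55401 with version, 55141 without).

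Genotypes were compared with edgeR 4.0.16 (quasi-likelihood test, TMM, filterByExpr, R 4.3.3) over 14326 genes with Benjamini-Hochberg adjustment, tested on simulated data beforehand. CPM used TMM factors. Differences of the 2 genes *Gm8822* and *Gm28036*, which failed the filter, were fitted without it. Transcripts were aligned with BLAST+ 2.17.0 (at least 100 bases at 80% identity). Genes named were the 9 loci, their best matches, overlapping, nearest tested and up to 5 changed genes within 500 kb, the most similar gene, *Sik1*, *Sik2*, *Sik3* and list genes, with exceptions marked. Loci and lists were chosen with earlier results of these data known. Alternatives were DESeq2 1.42.0, limma 3.58.1 (voom), RLE factors, no filter, a replicate block, a Y-linked covariate and leaving out kidneys. Over 12 pairs within groups, chi-square per degree of freedom was 9.06 to 49.5, so no library was a duplicate.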

Additional observations from a re-analysis of the deposited data

Results flagged for a closer look

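Within groups of 4 kidneys, 3 values lay far from the others by Dixon's criterion, out of 33 groups examined over the 9 loci and the genes they match, where chance gives about 1 in 20 (1.65). *Atp6v0c-ps2* was at 25.1 CPM in control 2, where the gap to the next control divided by the whole range of the controls was 0.967. Its level in mutant 1 was 39.0 CPM, with a share of 0.839. *Gm21596* was at 2.40 CPM in mutant 4, with a share of 0.979, while mutants 1, 2 and 3 lay at 0.677 to 0.712 CPM.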

How the results depend on the processing

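Genes at FDR under 0.05 numbered 0 with edgeR, 67 with DESeq2, 2 with limma-voom, 9 without the filter, 3 with posterior mean counts, 15 with the Y-linked covariate, 21 among kidneys with Y-linked reads and 0 to 1 when kidneys were left out in turn (1 without control 2, control 3 or mutant 1). Genes whose groups did not overlap numbered 578, 3175 among kidneys with Y-linked reads, where 2 controls remained, and 786 to 1245 with a kidney left out. Of the matched genes 0 passed FDR 0.05 with edgeR and 1 (*P3h2*) with DESeq2. Processed pseudogenes at an unadjusted p under 0.05 numbered 10, and 58 of 1997 without the filter. With the replicate block in edgeR, 0 genes passed FDR 0.05 and 657 an unadjusted p under 0.05, against 911. Deviations from the group means correlated at −0.288 to 0.053 between same-numbered kidneys. Controls differed among themselves in sex-linked genes and mutants did not, so these correlations cannot decide whether the numbers pair the kidneys.

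Summing locus and matched gene gave values set largely by the matched gene, which held most of the reads. The sums therefore do not show how firm the value of a locus is. Their sign was opposite to that of the locus for *AC134576.3* (−0.56), *Glns-ps1* (−0.56), *Gm21596* (0.077), *Atp6v0c-ps2* (−0.12) and *Gm8822* (0.042). In the other alternatives no locus changed sign: the log2 fold changes were −7.40 to −4.31 for *Gm45315*, 3.83 to 5.27 for *AC134576.3*, 2.76 to 3.51 for *Glns-ps1*, −2.88 to −1.56 for *Gm21596*, 0.92 to 3.95 for *Atp6v0c-ps2*, −3.83 to −2.30 for *Gm8822*, 1.36 to 6.25 for *Gm28036*, −1.39 to −0.95 for *Gm11525* and −0.97 to −0.42 for *Gm4524*. Genes near 0 changed sign with the Y-linked covariate and among kidneys with Y-linked reads, *Gm18194* (0.023 and 0.020), *Rbm12* (0.079 and 0.091) and *D030028A08Rik* (0.28 and 0.28). With a kidney left out, values straddled 0 for *Cpne1* (−0.29 to 0.13), *Snrnp70* (−0.059 to 0.057), *Nfs1* (−0.13 to 0.025), *Rbm12* (−0.25 to 0.031) and *D030028A08Rik* (−0.33 to 0.0014). The causes were not tested. Loci with 0 to 25 reads per kidney are limited by depth.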
